A study of Mus musculus with 16 samples.

Results

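Matrix metalloproteinases (MMPs), disintegrin metalloproteinases (ADAMs), their secreted relatives with thrombospondin repeats (ADAMTS), the ADAMTS-like proteins and the tissue inhibitors of metalloproteinases (TIMPs) were followed in mouse brown adipocytes. Genes were chosen by a rule on their symbols, and 85 of the 54347 genes in the table were members: 23 MMPs, 34 ADAMs, 19 ADAMTS, 5 ADAMTS-like genes and 4 TIMPs. The cells were of the wt1-SAM line, immortalized brown preadipocytes with a stable CRISPRa SAM system, an inactive Cas9 with activators that raises transcription where a single guide RNA (sgRNA) directs it. All 4 groups carried this system, were differentiated with rosiglitazone in the medium, received 250 ng of plasmid by reverse transfection on day 4 and were harvested on day 7. They differed in the plasmid, which was the empty sgRNA vector or the vectors pSgRNA-MS2-2+7 against the long noncoding RNA *Gm15551* (sgRNA cells), and in treatment, which was none (control) or 1 µM isoproterenol, a β-adrenergic agonist, for the last 24 h. Each group had 4 libraries of polyadenylated RNA, numbered replicates 3 to 6. All come from a single cell line, and nothing in the labels says that libraries of a group were separate cultures, so p-values measure the spread between these libraries, which may be technical.

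MMPs are zinc proteinases that cut collagens and other components of the extracellular matrix. ADAMs are anchored in the membrane and release the outer parts of other membrane proteins, and ADAMTS enzymes are secreted and cut proteoglycans and procollagens. ADAMTS-like proteins lack the catalytic domain, and TIMPs bind the active site of the enzymes and block it. In adipose tissue these proteins are known from the remodelling of the matrix around growing fat cells and from the release of growth factors and cytokines.

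Libraries held between 9053521 and 16546187 estimated counts, of which a single ribosomal RNA gene took 11.72% to 51.76%. *Gm15551* had 3 to 18 counts in empty vector control and 19 to 56 in sgRNA control libraries, 0 to 5 in stimulated empty vector and 13 to 26 in stimulated sgRNA libraries, and exceeded the paired empty vector library in 8 of 8 sgRNA libraries. Of the brown adipocyte markers, 11 of 12 passed the filter on low counts, with *Fabp4* at a mean of 14460 CPM (counts relative to library size, with TMM scaling) and *Dio2* at 1 count in all. *Fabp4* marks adipocytes in general. The brown marker *Ucp1* averaged 0.35 CPM in control and 6.42 CPM in stimulated empty vector cells, and 0.548 and 9.35 CPM in sgRNA cells. Over all libraries *Cidea* averaged 4.07 CPM and *Prdm16* 1.14 CPM.

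Of the 85 genes, 31 passed the filter and were tested, as did 13150 of all 54347 genes: 10 of 34 ADAMs, 9 of 19 ADAMTS, 5 of 23 MMPs, 3 of 5 ADAMTS-like genes and 4 of 4 TIMPs. A further 39 had counts in some library but too few for the test, and 15 had no count in any. A few ADAM genes made up most of the members' RNA. *Adam12*, *Adam9*, *Adam10* and *Adam17* together held between 63.1% and 73.2% of the members' CPM in every library.

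Compared per kilobase of exons, as means over 16 libraries, *Adam9* was highest at 25.1 CPM per kb. *Adam12*, known as meltrin alpha, followed with 13.9, *Timp1* with 13.0, the Notch sheddase *Adam10* with 12.5 and *Adam17*, which releases tumour necrosis factor, with 8.32. *Timp1*, with the shortest exons of these genes, thus stood close to *Adam10* per kilobase although its mean of 11.5 CPM was far below the 61.4 CPM of *Adam10*. By group, *Timp1* ranged from 7.39 CPM per kb in control sgRNA cells to 19.7 in stimulated empty vector cells, so its place between *Adam12* and *Adam10* depended on the group. The highest MMP was *Mmp19*, a secreted MMP, at 7.42 CPM per kb, ahead of *Adam15* at 5.22, *Mmp28* at 3.61 and *Timp2* at 3.38. *Mmp19* shares 22.3% of its exon bases with *Tmem198b*, *Adam15* 20.6% with *4731419I09Rik* and *Mmp28* 12.0% with *1700020L24Rik*, all on the other strand, and without a stated use of strand reads there cannot be told apart. *Mmp14*, the main membrane-type MMP, was at 1.23 CPM per kb.

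**Figure D1:**
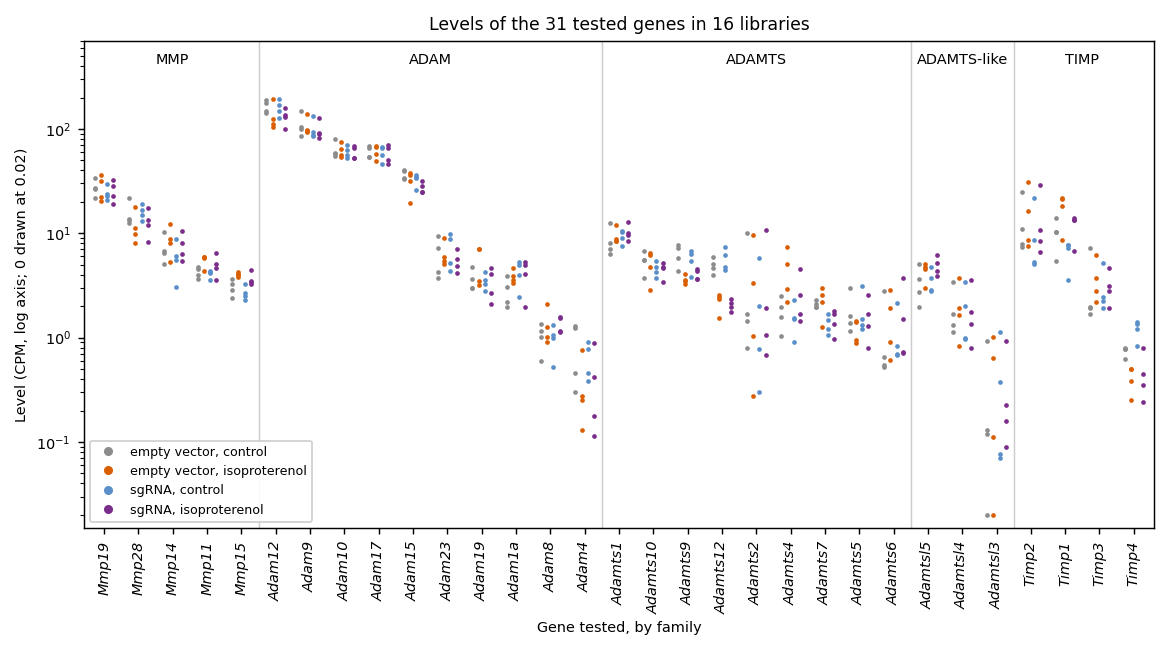
Level in CPM (log axis) of the 31 tested genes, ordered by family and by mean, with 1 point for each of the 16 libraries coloured by group. *Adam12*, *Adam9*, *Adam10* and *Adam17* lie above all other genes, while *Adamts2*, *Adamtsl3* and *Timp2* spread widely within each group.

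Among the genes left untested were both gelatinases, which are known for digesting basement membrane collagen. *Mmp2* had 7 counts over the 16 libraries and *Mmp9* had 5, where a count of 0 in a library allows up to 0.166 to 0.39 CPM, depending on its depth (3 counts, counting error only). None of the 4 collagenase genes was tested either. *Mmp13* reached 16 counts in a library and 95 in all, *Mmp8* had 2 in all, and *Mmp1a* and *Mmp1b* had none. The stromelysin *Mmp3* was uneven: it had between 2 and 16 counts in each library of replicates 5 and 6, and 0 or 1 in each library of replicates 3 and 4. Other untested genes with at least 10 counts in a library were *Mmp23* with up to 20, *Adam22*, a non-proteolytic ADAM, with up to 20, *Adam28* with up to 15, *Adamts14* with up to 11, and *Adam21* and *Adamts15* with up to 10. Besides *Mmp1a* and *Mmp1b*, the genes without a count were *Mmp7*, *Mmp20*, *Adam6a*, *Adam6b*, *Adam18*, *Adam20*, *Adam25*, *Adam26a*, *Adam26b*, *Adam29*, *Adam34*, *Adam34l* and *Adam39*, and several of these ADAMs are known from the testis.

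Of the untested MMP genes 10 lie together. In the GENCODE annotation of GRCm38, these genes sit side by side on chromosome 9, from *Mmp13* to *Mmp7* (chr9:7272514-7699585), and none of the 10 passed the filter. The 250 bases before the start of each gene, taken from RefSeq (GRCm38.p6, matched by symbol for 54 of the 85 members), were searched for the AP-1 motif TGANTCA, which reads the same on both strands. It occurred in 8 of these 10 promoters, in 0 of the 4 promoters matched among the tested MMPs, in 1 of 22 among all tested members and in 11 of 32 among all untested members. Of these 11 untested members, 8 are the chromosome 9 genes just counted. Over 32851 RefSeq promoters of this length the share was 6.75%. The 10 genes are neighbours of a single family and not independent promoters, so their share was not tested against it. A search beyond the members called under isoproterenol was not planned beforehand. The 8 matches began between 35 and 95 bases before the start, and are given here with 10 bases on either side, because 8 of these 10 untested genes share the motif. Capitals mark the motif. A match is a description of the sequence and says nothing of binding.

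*Mmp13* (chr9:7272469-7272495, plus strand): cccaaagtggTGACTCAtcactatcat
*Mmp12* (chr9:7347320-7347346, plus strand): acatcaacagTGAGTCAgatagaggat
*Mmp1b* (chr9:7388103-7388129, minus strand): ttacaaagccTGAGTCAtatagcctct
*Mmp3* (chr9:7445766-7445792, plus strand): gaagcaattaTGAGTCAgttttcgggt
*Mmp1a* (chr9:7464058-7464084, plus strand): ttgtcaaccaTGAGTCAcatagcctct
*Mmp10* (chr9:7502269-7502295, plus strand): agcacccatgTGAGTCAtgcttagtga
*Mmp20* (chr9:7628126-7628152, plus strand): atttgagacaTGAATCAtcacttacag
*Mmp7* (chr9:7692017-7692043, plus strand): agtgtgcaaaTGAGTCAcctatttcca

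Isoproterenol changed few members, and it moved proteinases and inhibitors in both directions. Averaged over both plasmids, *Adamts12*, *Adamts9* and *Timp4* fell, 3 of 31 tested members, and no member rose. The call required an adjusted p under 0.05 after Benjamini-Hochberg adjustment over all tested genes (quasi-likelihood test of edgeR, given as edgeR from here on) together with a log2 fold change beyond 0.5 in either direction, and 2.65% of all tested genes met it. Libraries of the same replicate number deviated together. Once replicate number entered the fit as a block, *Timp1* and *Adamts4* also passed, both higher, which made 5 of 31 against 5.7% of all tested genes. The median log2 fold change of the 31 was 0.13, beside 0.01 over all tested genes. By family, 2 of 9 ADAMTS and 1 of 4 TIMPs were called lower without the block, 1 of each was called higher with it, and 0 of 10 ADAMs, 0 of 5 MMPs and 0 of 3 ADAMTS-like genes were called in either fit.

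**Figure D2:**
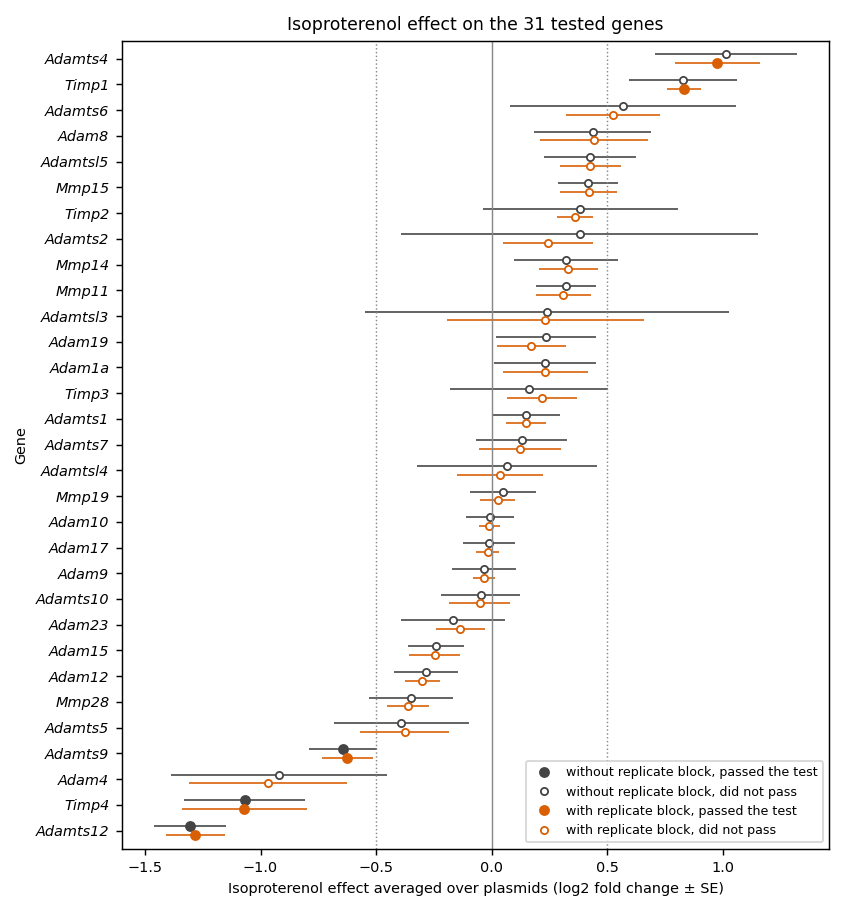
Isoproterenol effect averaged over plasmids, as log2 fold change with its SE, for the 31 tested genes without (grey) and with (orange) the replicate block. Filled points passed the test and dotted lines mark the bound of 0.5; *Adamts12*, *Timp4* and *Adamts9* are filled in both fits on the left, *Adamts4* and *Timp1* only with the block on the right.

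*Adamts12* (ENSMUSG00000047497, chr15:11064790-11349231, plus strand) encodes a secreted proteinase known to cut cartilage oligomeric matrix protein. Its level in replicates 3, 4, 5 and 6 was 5.96, 4.66, 5.06 and 3.95 CPM in empty vector control libraries and 2.32, 2.55, 1.53 and 2.44 CPM in stimulated ones. In sgRNA cells the same replicates held 7.42, 6.23, 4.79 and 4.41 CPM as controls and 2.13, 2.32, 1.76 and 1.98 CPM when stimulated. All 8 control libraries thus lay above all 8 stimulated ones. The averaged log2 fold change was −1.31 (SE 0.16, adjusted p 9e-05 by edgeR). It passed within each plasmid as well, the only member to do so without the block: −1.14 (SE 0.22, adjusted p 0.02) in empty vector cells and −1.47 (SE 0.22, adjusted p 0.00211) in sgRNA cells, where 0.829% and 0.7% of all tested genes were called. The averaged call held in each of the 20 fits that left out a library or a replicate number. The call in empty vector cells was lost without replicate 3, 4 or 5, without empty vector control replicate 3 or 5 and without stimulated empty vector replicate 3 or 6, with adjusted p up to 0.274, and that in sgRNA cells without replicate 3 or 4, with adjusted p up to 0.0731.

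*Adamts9* (ENSMUSG00000030022, chr6:92772699-92943492, minus strand) encodes a proteinase that cuts the proteoglycans versican and aggrecan. Empty vector control libraries of replicates 3 to 6 held 7.64, 7.23, 5.84 and 4.36 CPM, and stimulated ones 3.48, 3.54, 4.07 and 3.28 CPM. In sgRNA cells the values were 6.79, 5.40, 6.36 and 3.80 CPM in control and 4.53, 3.62, 4.33 and 3.67 CPM in stimulated libraries. The groups were apart in empty vector cells and overlapped in sgRNA cells, where the control library of replicate 6 was low, and the stimulated library was the lower one in 8 of 8 pairs. The averaged log2 fold change was −0.64 (SE 0.15, adjusted p 0.0193 by edgeR). This call was lost without replicate 3, 4 or 5 and without sgRNA control replicate 3, with adjusted p up to 0.236. Of its exon bases 9.18% are shared with *A730049H05Rik* on the other strand, and since the use of strand in counting was not stated, reads there cannot be told apart.

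*Timp4* (ENSMUSG00000030317, chr6:115241892-115252205, minus strand) was the TIMP with the lowest level, with at most 20 counts in a library. It held 0.782, 0.788, 0.779 and 0.623 CPM in empty vector control and 0.387, 0.498, 0.255 and 0.505 CPM in stimulated empty vector libraries of replicates 3 to 6. In sgRNA cells it held 1.40, 0.836, 1.35 and 1.22 CPM in control and 0.444, 0.792, 0.24 and 0.353 CPM in stimulated libraries. Control and stimulated libraries did not overlap within either plasmid, but did across plasmids. The averaged log2 fold change was −1.07 (SE 0.26, adjusted p 0.0286 by edgeR). The call was lost without the filter on low counts (adjusted p 0.148) and in 11 of 20 fits that left out libraries, with adjusted p up to 0.292: without replicate 3, 5 or 6, without empty vector control replicate 3, 4 or 5, without replicate 3 of stimulated empty vector cells, without replicate 3 or 5 of control sgRNA cells, and without replicate 3 or 6 of stimulated sgRNA cells. With the block, the averaged call was lost without replicate 3 or 5, with adjusted p up to 0.0809 by edgeR. The gene lies within *Syn2* on the opposite strand and shares 1.53% of its exon bases with it.

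*Timp1* (ENSMUSG00000001131, chrX:20870166-20874735, plus strand), an inhibitor of most secreted MMPs, moved the other way. Replicates 3 to 6 held 10.4, 10.3, 5.45 and 14.1 CPM in empty vector control and 21.4, 18.1, 8.65 and 21.9 CPM in stimulated empty vector libraries. In sgRNA cells they held 7.77, 7.15, 3.59 and 7.75 CPM as controls and 13.95, 13.5, 6.73 and 13.4 CPM when stimulated. Replicate 5 was the lowest library of each of the 4 groups, and its stimulated libraries overlapped with the control libraries of the same plasmid, yet the stimulated library was higher in 8 of 8 pairs. The averaged log2 fold change was 0.83 in both fits, with SE 0.23 and an adjusted p of 0.057 without the block, and SE 0.07 and 7.24e-07 with it, by edgeR. Without the block it passed in DESeq2 (adjusted p 0.0134), by edgeR with no filter on low counts (adjusted p 0.0129), and when replicate 5, empty vector control replicate 6, or stimulated replicate 5 of either plasmid was left out (adjusted p down to 0.00105). The gene lies within *Syn1* on the opposite strand and shares 0 exon bases with it.

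*Adamts4* (ENSMUSG00000006403, chr1:171250421-171260637, plus strand) encodes an aggrecanase. In replicates 3 to 6 it was at 1.99, 1.58, 1.04 and 2.49 CPM in empty vector control and at 2.19, 5.09, 2.93 and 7.32 CPM in stimulated empty vector libraries. In sgRNA cells it was at 1.54, 1.52, 0.898 and 2.28 CPM in control and at 2.58, 1.70, 1.44 and 4.59 CPM in stimulated libraries. Replicate 6 was the highest library of each group, the groups overlapped, and the stimulated library was higher in 8 of 8 pairs. The averaged log2 fold change was 1.02 (SE 0.31, adjusted p 0.0758) without and 0.98 (SE 0.19, adjusted p 0.0014) with the block by edgeR, and it passed in DESeq2 without the block (adjusted p 0.029). Members that were not called also kept their direction in 8 of 8 pairs: *Adam4* and *Mmp28* were lower when stimulated, and *Adamts6* and *Mmp15* higher. The share of all tested genes that did so was not computed.

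**Figure D3:**
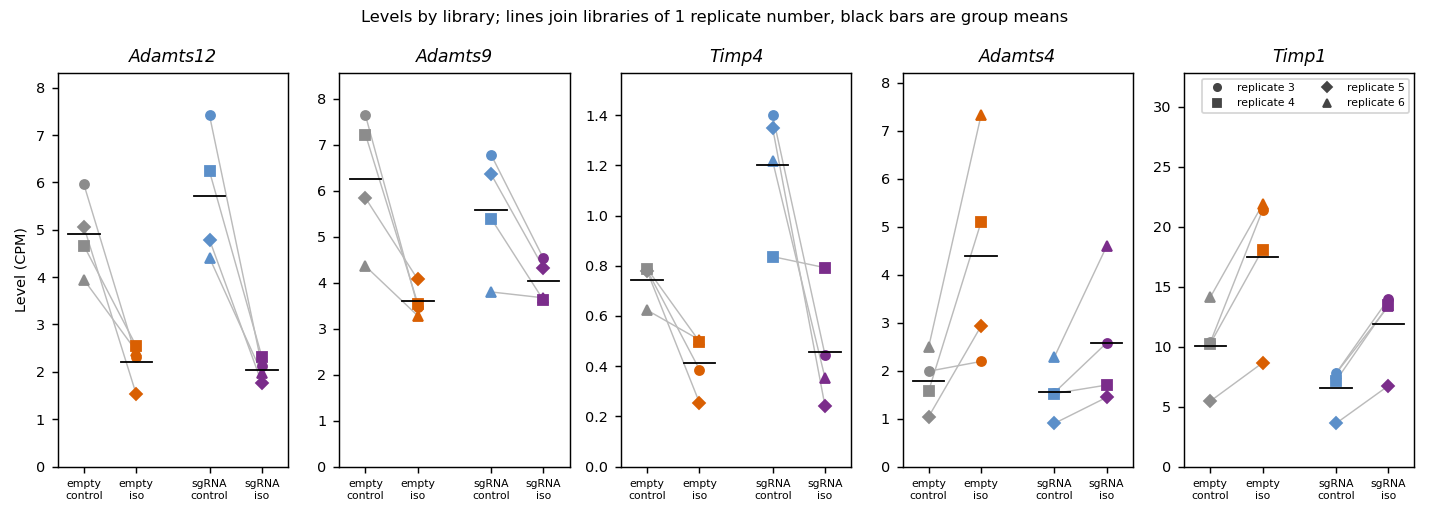
Level in CPM of the 5 genes called under isoproterenol, by group, with marker shapes for replicate numbers, grey lines joining control and stimulated libraries of a replicate number, and black bars for means of 4 libraries. Every line of *Adamts12*, *Adamts9* and *Timp4* goes down and every line of *Adamts4* and *Timp1* goes up, while replicate 5 is low for *Timp1* in each group.

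Promoters of 4 of these 5 genes are in RefSeq (GRCm38.p6), and the 250 bases before each start are given here because these genes moved under a β-adrenergic agonist, whose pathway is known to act through the cAMP response element (CRE). Capitals mark its core motif TGACG, searched on both strands. A single match each occurred 205 bases before the start of *Adamts12* (chr15:11064523-11064772, plus strand), 218 before that of *Adamts9* (chr6:92943535-92943784, minus strand) and 84 before that of *Timp1* (chrX:20869916-20870165, plus strand). The promoter of *Timp4* (chr6:115252206-115252455, minus strand) held none, and the AP-1 motif TGANTCA occurred in none of the 4. Of the 32851 promoters of this length 17.8% hold TGACG. Among members it occurred in 6 of 22 tested genes with a promoter entry and 1 of 32 untested ones. The other tested members with a match were *Adam10*, *Adamts1* and *Adamtsl3*, which were not called under isoproterenol. Of the called genes with a match, *Adamts12* and *Adamts9* fell and *Timp1* rose, while *Timp4*, without a match, fell. These matches, too, only describe the sequence, and a part of the motif in the changes was not tested.

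*Adamts12*: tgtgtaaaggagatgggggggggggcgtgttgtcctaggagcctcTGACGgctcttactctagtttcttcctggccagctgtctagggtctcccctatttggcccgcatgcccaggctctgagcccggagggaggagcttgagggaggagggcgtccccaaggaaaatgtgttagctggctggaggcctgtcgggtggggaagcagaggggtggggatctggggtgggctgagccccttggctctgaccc
*Adamts9*: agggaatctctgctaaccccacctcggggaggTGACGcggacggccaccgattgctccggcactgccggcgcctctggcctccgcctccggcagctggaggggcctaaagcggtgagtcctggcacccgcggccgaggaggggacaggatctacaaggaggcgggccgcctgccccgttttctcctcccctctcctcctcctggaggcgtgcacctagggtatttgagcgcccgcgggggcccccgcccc
*Timp1*: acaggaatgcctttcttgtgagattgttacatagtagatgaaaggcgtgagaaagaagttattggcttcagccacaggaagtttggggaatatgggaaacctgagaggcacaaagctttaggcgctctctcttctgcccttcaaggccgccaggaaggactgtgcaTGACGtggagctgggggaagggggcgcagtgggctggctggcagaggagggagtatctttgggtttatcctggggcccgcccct
*Timp4*: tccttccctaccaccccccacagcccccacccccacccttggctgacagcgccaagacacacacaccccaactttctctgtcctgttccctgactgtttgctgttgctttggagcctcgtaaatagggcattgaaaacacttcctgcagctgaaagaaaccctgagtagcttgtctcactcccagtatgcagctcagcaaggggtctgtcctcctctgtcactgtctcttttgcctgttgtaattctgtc

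The abundant sheddases were not called under isoproterenol. *Adam10* averaged 62.5 ± 11.4, 62.4 ± 9.66, 60.6 ± 7.96 and 59.9 ± 8.57 CPM (SD, n = 4) in empty vector control, stimulated empty vector, sgRNA control and stimulated sgRNA cells. Its isoproterenol effect was −0.01 (SE 0.10) on the log2 scale, that of *Adam17* was −0.01 (SE 0.11) and that of *Adam9* −0.03 (SE 0.14). With the block the SE was 0.05 for each, and none passed in either fit. *Adam12* averaged 163 ± 22.7 and 134 ± 41.8 CPM (SD, n = 4) in control and stimulated empty vector cells, and 160.0 ± 28.5 and 131 ± 25.1 CPM (SD, n = 4) in control and stimulated sgRNA cells. Its log2 fold change of −0.30 (SE 0.08) with the block had an adjusted p of 0.0105 by edgeR but lay within the bound of 0.5, and without the block the adjusted p was 0.298.

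None of the 5 tested MMPs was called. *Mmp14*, which cuts collagen at the cell surface, had an isoproterenol effect of 0.32 (SE 0.22, adjusted p 0.506 by edgeR), and *Mmp19* one of 0.05 (SE 0.14, adjusted p 0.91). A pair of MMPs, named here after their values were seen, had adjusted p under 0.05 with the block but effects within the bound: *Mmp28* at −0.36 (SE 0.09, adjusted p 0.00898) and the membrane-type *Mmp15* at 0.42 (SE 0.12, adjusted p 0.0227). *Mmp15* held 2.39 to 3.61 CPM in control and 3.79 to 4.25 CPM in stimulated empty vector libraries, and 2.31 to 3.27 and 3.28 to 4.44 CPM in sgRNA cells, so that its groups did not overlap within either plasmid.

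The remaining TIMPs were not called. *Timp2*, which also helps MMP14 to activate pro-MMP2, had an isoproterenol effect of 0.38 (SE 0.42) without and 0.36 (SE 0.08, adjusted p 0.0038 by edgeR) with the block, within the bound. Leaving out libraries moved its effect without the block between 0.045 and 0.72. *Timp3*, the TIMP that binds to the matrix and also inhibits ADAM17, shares 21.3% of its exon bases with *Syn3* on the other strand and had effects of 0.16 (SE 0.34) and 0.22 (SE 0.15, adjusted p 0.342). Summed over the 4 genes, TIMP levels were 26.8 ± 13.5 CPM in control and 37.5 ± 14.9 CPM in stimulated empty vector cells, and 20.9 ± 9.93 and 29.2 ± 12.4 CPM in sgRNA cells (SD, n = 4).

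Within plasmids, the block brought the number of members called under isoproterenol from 1 to 4 in empty vector cells, where 4.47% of all tested genes were called, and from 1 to 3 in sgRNA cells, where 3.9% were. *Timp1* rose in both, by log2 values of 0.80 (SE 0.10, adjusted p 8.4e-05 by edgeR) and 0.86 (SE 0.10, adjusted p 5.97e-05). *Adamts4* and *Adamts9* passed in empty vector cells, with 1.28 (SE 0.26, adjusted p 0.00457) and −0.80 (SE 0.16, adjusted p 0.00474), and *Timp4* passed in sgRNA cells, with −1.36 (SE 0.36, adjusted p 0.0264). In the blocked fit *Adamts9* was lost without replicate 3 or 4 (adjusted p 0.065 and 0.0744), *Adamts4* without replicate 4 or 6 (0.0615 and 0.0639) and *Timp4* without replicate 3, 5 or 6 (0.148, 0.173 and 0.154), while *Timp1* and *Adamts12* passed in both plasmids without each number. A difference in response between plasmids was tested as an interaction. In either fit 0 of 31 members passed, beside 0 of all 13150 tested genes. In each of these fits 0 members had an unadjusted p under 0.05 by edgeR. Of the 13150 tested genes 52 had one without the block and 199 with it. DESeq2 called 0 members and 0 of the 54347 genes in the table, of which 34821 had a count in some library. The 3 members with the largest interaction were *Adamtsl3*, which lacks a proteinase domain, at −0.89 (SE 1.58), *Adamts2*, a procollagen N-proteinase, at 0.65 (SE 1.55), and *Adamts4* at −0.59 (SE 0.61), each within its error.

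The sgRNA vectors changed *Timp1* alone among the members, and only with the block. Without it 0 of 31 members and 0% of all tested genes were called, averaged or in stimulated cells. In the averaged effect 2 members had an unadjusted p under 0.05 by edgeR, beside 437 of 13150 tested genes. DESeq2 called 0 members and 10 of the 54347 genes in the table, of which 34821 had a count in some library. With the block the averaged effect on *Timp1* was −0.57 (SE 0.07, adjusted p 0.001 by edgeR), and it was called where 0.266% of all tested genes were. Its level in sgRNA cells was the lower one in 8 of 8 pairs, at 6.56 ± 2.00 against 10.0 ± 3.55 CPM in control cells and 11.9 ± 3.44 against 17.5 ± 6.13 CPM in stimulated cells (SD, n = 4). In stimulated cells alone it passed with the block at −0.54 (SE 0.10, adjusted p 0.0437), where 0.122% of all tested genes did. This call was lost with the ribosomal RNA share added (adjusted p 0.628) and without each replicate number in turn (adjusted p 0.156 to 0.471). In control cells *Timp1* did not pass with the block, at −0.60 (SE 0.11, adjusted p 0.0626). The ribosomal RNA gene took 28.95% ± 12.76 of counts in control and 36.79% ± 12.78 in stimulated empty vector libraries, and 19.07% ± 1.109 and 21.11% ± 7.181 in sgRNA libraries (SD, n = 4). With this share as a covariate beside the block, the averaged effect on *Timp1* was −0.59 with an adjusted p of 0.064. Without replicate 6 the blocked effect was −0.48, within the bound of 0.5. The part of ribosomal RNA in the difference was not tested further.

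*Adamts7*, which was not called, encodes another proteinase known to cut cartilage oligomeric matrix protein. Replicates 3 to 6 held 2.11, 1.97, 1.95 and 2.29 CPM in empty vector control and 1.47, 1.67, 1.20 and 1.06 CPM in sgRNA control libraries, which did not overlap. Control libraries of *Timp4* did not overlap between plasmids either, at 0.623 to 0.788 CPM with empty vector against 0.836 to 1.40 CPM with sgRNA. How many of all tested genes lacked overlap between groups was not counted, for these or the other members. Stimulated libraries of *Adamts7* did overlap, at 2.58, 2.99, 1.27 and 2.19 against 0.977, 1.81, 1.36 and 1.70 CPM. Its averaged effect of −0.62 (SE 0.20) was the largest of all members by size, but the adjusted p was 1 without and 0.183 with the block by edgeR. *Adamts4* at −0.49 (SE 0.31), *Timp4* at 0.41 (SE 0.26) and *Adam19*, a neuregulin sheddase, at −0.33 (SE 0.22) followed after *Timp1*, which was at −0.59 (SE 0.23) in this fit without the block, all with an adjusted p of 1. *Timp2* and *Timp3* were at −0.27 (SE 0.42) and −0.18 (SE 0.34).

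Replicate number took the largest part of the variation of most members, as of most genes tested. It took a median of 0.547 of the sum of squares of log2 CPM over the 31 members, beside 0.468 over all tested genes, while isoproterenol took 0.0822 (0.0679 over all tested genes) and the plasmid 0.032 (0.0238). Replicate number was the largest of the 3 in 24 members, isoproterenol in 6 and the plasmid in 1, beside 10673, 1939 and 538 of the 13150 tested genes. Replicate number has 3 degrees of freedom in this split against 1 for each factor. *Adamts2* was the extreme, with 0.934 of its variation by replicate number: its mean over 4 groups was 9.04 CPM in replicate 6, against 1.08, 0.512 and 2.24 CPM in replicates 3, 4 and 5. *Timp2* followed the same order, with 26.7 CPM in replicate 6 against 7.29, 6.94 and 11.7 CPM. Replicate 6 also held the highest means of *Timp3*, at 5.78 CPM, and *Adamtsl3*, at 1.00 CPM. At the other end, isoproterenol took 0.865 of the variation of *Adamts12*, 0.624 of that of *Timp4* and 0.58 of that of *Adamts9*, and the plasmid took 0.482 of that of *Adamts7*. What the replicate numbers stand for is not stated in the labels.

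**Figure D4:**
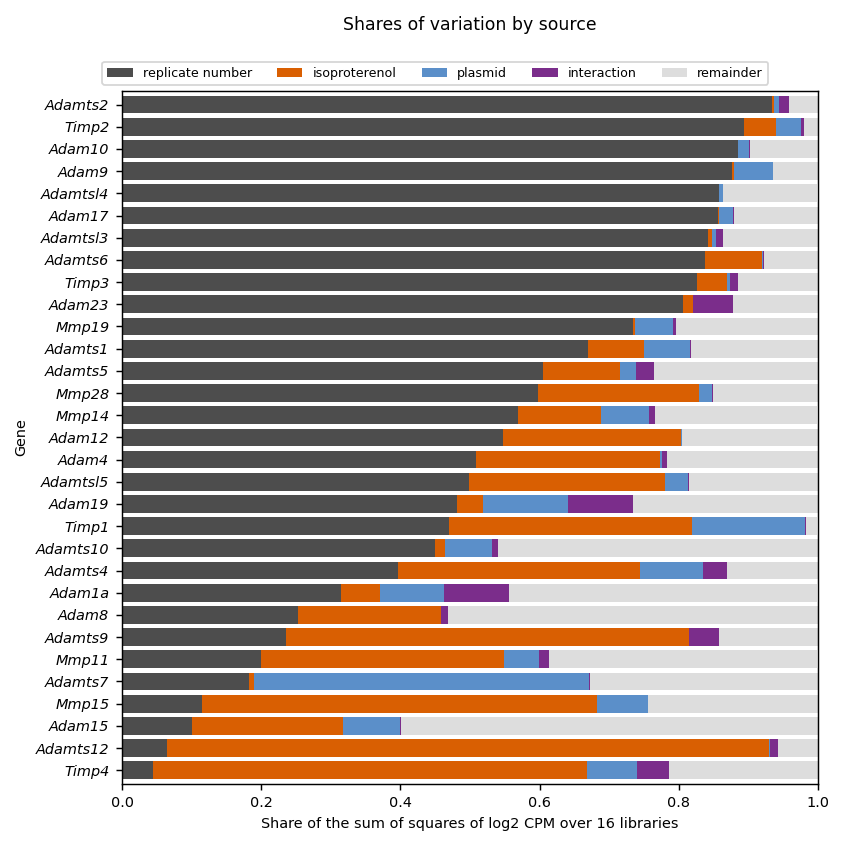
Shares of the sum of squares of log2 CPM over 16 libraries that replicate number, isoproterenol, the plasmid and their interaction take, with the remainder, for the 31 tested genes ordered by the share of replicate number. Dark bars for replicate number fill most of *Adamts2*, *Timp2*, *Adam10* and *Adam9*, and orange bars for isoproterenol most of *Adamts12* and *Timp4*.

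Other genes of the same pathways were read from the same fits. Of the proprotein convertases and plasminogen activators, which activate latent metalloproteinases, 6 of 8 were tested: *Plaur*, the urokinase receptor, rose under isoproterenol by 0.77 (SE 0.17, adjusted p 0.018 by edgeR), and with the block *Pcsk6* was lower as well, at −1.14 (SE 0.17, adjusted p 0.000172). Of 7 other inhibitors and clearance genes 3 were tested, among them the endocytic receptor gene *Lrp1*, which passed with the block at 0.60 (SE 0.11, adjusted p 0.0012). Of 9 partners of ADAM10 and ADAM17 8 were tested, and *Tspan14*, a tetraspanin that carries ADAM10 to the cell surface, fell by 0.50 (SE 0.09, adjusted p 0.0044) without the block and lay at the bound with it. Of 5 tolloid proteinases and enhancers 3 were tested and 0 passed in either fit.

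Of 21 proteins known to be shed 15 were tested. *Sdc4*, a syndecan, rose by 0.54 (SE 0.11, adjusted p 0.0109 by edgeR) and *Ereg*, an epidermal growth factor receptor ligand, by 0.69 (SE 0.15, adjusted p 0.0139), and with the block *Tnfrsf1b* passed at 0.55 (SE 0.09, adjusted p 0.000272). *Ereg* also passed in the averaged sgRNA effect with the block, at −0.60 (SE 0.12, adjusted p 0.0348). Of 18 matrix substrates 11 were tested: 0 passed without the block and 3 with it, *Vcan*, the substrate of ADAMTS4 and ADAMTS9, at 0.86 (SE 0.06, adjusted p 2.62e-08), *Fn1* at 0.61 (SE 0.12, adjusted p 0.0021) and *Col1a2* at −0.72 (SE 0.13, adjusted p 0.00126). The calls of *Tspan14*, *Sdc4*, *Plaur* and *Ereg* without the block were lost in 10, 6, 3 and 2 of the 20 fits that left out libraries.

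Markers of other cells moved in part with isoproterenol. In these bulk libraries fewer cells of a type and less RNA per cell cannot be told apart. Of 8 macrophage and leukocyte markers 2 were tested, and *Cd68* and *Cd14* both rose, by 0.91 (SE 0.17, adjusted p 0.00518) and 0.82 (SE 0.15, adjusted p 0.00384) by edgeR, while the defining markers *Ptprc* and *Adgre1* had 6 and 1 counts over all libraries. The list summed to 10.8 to 17.6 CPM in control and 19.5 to 28.1 CPM in stimulated empty vector libraries, and to 9.06 to 16.2 and 17.5 to 26.7 CPM in sgRNA libraries. Of 8 preadipocyte and fibroblast markers 4 were tested, and with the block *Ly6a* rose under isoproterenol by 1.09 (SE 0.11, adjusted p 4.92e-06) and was lower in sgRNA cells (−0.74, SE 0.11, adjusted p 0.00491). The other 3, *Pdgfra*, *Pdgfrb* and *Pi16*, were at 0.30, 0.04 and −0.22 under isoproterenol and at 0.05, −0.25 and −0.20 in sgRNA cells with the block, none of them called. That list summed to 14.4 to 73.7 and 20.7 to 94.8 CPM in control and stimulated empty vector libraries, and to 8.53 to 42.0 and 16.3 to 68.6 CPM in sgRNA libraries, with *Ly6a* at a mean of 30.2 CPM over all libraries and *Dpp4* at 1 count in all.

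Of 6 smooth muscle markers 5 were tested, and with the block *Tagln*, *Myh11* and *Acta2* fell and *Smtn* rose under isoproterenol, with group ranges of the sum that overlapped between 15.3 and 42.5 CPM. Of 6 endothelial markers 1 was tested and 0 passed, and the list summed to at most 3.46 CPM. Brown adipocyte markers summed to 12730 to 22030 CPM in control and 9420 to 17250 CPM in stimulated empty vector libraries, and to 15900 to 20590 and 9883 to 19290 CPM in sgRNA libraries. Most of this sum was *Fabp4*, at a mean of 14460 CPM over all libraries. Of the 11 tested, 2 rose under isoproterenol and 2 fell by edgeR: *Ucp1* was at 4.03 (SE 0.37, adjusted p 7.36e-06), *Ppargc1a* at 0.71 (SE 0.15, adjusted p 0.0128), *Adipoq* at −1.06 (SE 0.18, adjusted p 0.00222) and *Lipe* at −0.69 (SE 0.15, adjusted p 0.0139). With the block 3 rose and 4 fell, *Cidea*, *Cebpa* and *Plin1* being added, and *Cidea* alone among them was called in the averaged sgRNA effect, at 1.05 (SE 0.21, adjusted p 0.0348). The part of other cell types in the members' changes was not tested.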

How the data were processed

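RNA of 16 libraries was sequenced as paired ends. The authors used cutadapt for trimming and Salmon, with GENCODE M22 transcripts (GRCm38), for quantification, and deposited estimated counts per gene, as whole numbers. The use of strand is not given in the sources used here. The members and the lists of related genes were chosen with earlier results of these data known.

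From these counts, CPM with TMM scaling and edgeR's quasi-likelihood test (edgeR 4.0.16, limma 3.58.1, R 4.3.3) were computed over all 4 groups without a replicate term. Genes passed edgeR's filter with a minimum count of 10 and a minimum total of 15. Fold changes used edgeR's default prior count. A prior count of 2 entered only the log2 CPM used to split the variation and to compare same-numbered libraries. The Benjamini-Hochberg adjustment ran over all genes tested, and a gene was called where the adjusted p was under 0.05 and the log2 fold change beyond 0.5 in either direction. Same-numbered libraries deviated together in all 6 pairs of each number, with r of 0.224 to 0.359 for replicate 3, 0.359 to 0.613 for replicate 4, 0.357 to 0.468 for replicate 5 and 0.523 to 0.596 for replicate 6, so a fit blocked on replicate number is given where it changed a call. The pairing comes from the labels' replicate numbers. Scripts were tested on simulated data.

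Alternatives were the block, the block with the share of the ribosomal RNA gene, DESeq2 1.42.0, median-of-ratios scaling, no filter, no fold change bound, leaving out the ribosomal RNA gene, and leaving out each library or replicate number. Leaving out replicate numbers within the blocked fit was added after seeing the data. Named were members called in any comparison, the 4 TIMPs, both gelatinases, *Mmp14*, *Adam10* and *Adam17*, the 5 largest averaged sgRNA effects, the 3 largest interactions, the 5 highest members per kilobase, up to 4 called genes of each related list, and untested members without a count or with at least 10 in a library. Other members are named as examples chosen after their values were seen. A gene of the related lists that met this rule is not reported here. Totals of 9053521 to 16546187 counts set the precision, and floors cover counting error only. Positions are from the GENCODE M21 annotation of GRCm38 and promoters from RefSeq. The variation of log2 CPM was split by sums of squares over replicate number, treatment, plasmid and their interaction.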

Additional observations from a re-analysis of the deposited data

Results flagged for a closer look

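In 10 of 68 groups of 4 libraries, examined for 17 members, 1 library lay far from the other 3, by a limit that chance passes in about 1 in 20 independent groups. These groups reuse the same 16 libraries and are not independent, so the count was not tested against that rate. In 7 of the 10 it was replicate 6 that lay higher. *Adamts2* was at 10.07 CPM in empty vector control replicate 6, against 0.788 to 1.69 CPM in the others, and at 10.73 CPM in stimulated sgRNA replicate 6, against 0.679 to 1.92 CPM. *Adamtsl3* was at 0.9346 CPM in empty vector control replicate 6, against 0 to 0.13 CPM, and at 0.918 CPM in stimulated sgRNA replicate 6, against 0.0888 to 0.226 CPM. *Timp3* was at 7.165 CPM in empty vector control replicate 6, against 1.69 to 1.99 CPM. *Adam10* in the same library was at 79.34 CPM, against 54.8 to 58.3 CPM, and *Adam9* in stimulated empty vector replicate 6 was at 139.5 CPM, against 94.3 to 97.1 CPM.

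The other 3 lay lower. *Timp1* in replicate 5 was at 3.592 CPM in sgRNA control, against 7.15 to 7.77 CPM, and at 6.728 CPM in stimulated sgRNA cells, against 13.4 to 13.95 CPM. *Timp4* was at 0.6231 CPM in empty vector control replicate 6, against 0.779 to 0.788 CPM. What the replicate numbers share was not tested.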

How the results depend on the processing

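The number of members called under isoproterenol was 3 on average over plasmids. It was 5 with the replicate block, 5 with the block and the ribosomal RNA share, and 5 in DESeq2. It was 1 to 4 when libraries were left out and 4 to 6 when replicates were left out of the blocked fit. Over all genes 349 were called, 749 with the block, 730 with the share added and 470 in DESeq2. The DESeq2 fit ran on all 54347 genes in the table, of which 34821 had a count in some library. Leaving out libraries gave 120 to 465 genes, and leaving out replicates of the blocked fit 607 to 752. In empty vector cells the 1 called member became 4 with the replicate block and 4 with the share added. It became 2 in DESeq2 and 0 to 2 when libraries were left out. In sgRNA cells the 1 became 3 with the block, 3 with the share added, and 0 to 2 when libraries were left out. Over all tested genes the block brought the count from 109 to 588 in empty vector cells and from 92 to 513 in sgRNA cells. For the other settings within a plasmid the count over all genes was not taken. Those shifts in members can therefore not be set beside a share of all genes. The sgRNA vectors' 0 called members became 1 with the replicate block, averaged or in stimulated cells. They became 0 to 1 when replicates were left out of the averaged blocked fit. Over all tested genes 0 became 35 averaged and 16 in stimulated cells with the block. Leaving out replicates of the averaged blocked fit gave 16 to 26 genes. The cause of these shifts was not tested. Beside the block, the share of the ribosomal RNA gene turned the isoproterenol effects of *Mmp19* to −0.013, *Adam9* to 0.004 and *Adam10* to 0.005. Leaving out libraries turned the direction of the isoproterenol effects of *Timp3* (−0.026 to 0.53), *Mmp19* (−0.041 to 0.16), *Adam9* (−0.12 to 0.055), *Adam10* (−0.062 to 0.059), *Adam17* (−0.064 to 0.034), *Adamts2* (−0.41 to 1.09) and *Adamtsl3* (−0.29 to 1.08), of the sgRNA effects of *Timp2* (−0.60 to 0.028) and *Timp3* (−0.37 to 0.20), and of the interactions of *Adamtsl3* (−2.57 to 0.31) and *Adamts2* (−0.92 to 1.96); none of these was called. Of 350 values under other settings 308 kept their direction and side of the threshold, and of 1030 when libraries were left out 918 did. *Timp4*, with at most 20 counts in a library, was the called member with the fewest counts.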
